A study of Mus musculus with 6 samples.

Results

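Kidneys are held together by an extracellular matrix, and the genes described here encode its structural proteins: 44 collagen chains, 11 laminin chains and 13 further proteins (Fn1, Sparc, Postn, Tnc, Dcn, Bgn, Lum, Nid1, Nid2, Hspg2, Fbn1, Eln and Vwa1). The set is defined by gene symbol, as names built like Col4a1 or Lamb2 plus that list, with no measured value in the rule, and came to 68 of the 24346 genes in the deposited tables. Kidney messenger RNA was sequenced in 6 samples of mice from which 1 kidney had been removed (unilateral nephrectomy), after which the remaining kidney grows. Before the operation all mice ate a diet without serine for 1 week. The vehicle group (3 samples) drank water without an addition and the D-serine group (3 samples) drank water with 0.1% D-serine, and kidneys were taken 2 days after surgery. D-serine, the mirror image of the amino acid L-serine, is a co-agonist of NMDA-type glutamate receptors. Strain, sex and age were not given in the sources used here, and sham-operated mice were not analysed here. Nothing in the labels ties a sample to 1 mouse, so a p-value here measures only the spread between samples, which may be technical.

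Matrix falls into a few architectures. Type IV collagen, laminins, nidogens and the proteoglycan perlecan form basement membranes, the sheets under every tubule and between the capillaries and podocytes of the glomerulus. In the glomerulus, earlier forms are replaced during development. Type IV collagen built of the alpha3, alpha4 and alpha5 chains takes over, as does laminin built of alpha5, beta2 and gamma1. Loss of these type IV collagen chains causes Alport syndrome, and loss of laminin beta2 causes Pierson syndrome. Fibrillar collagens such as types I and III, with fibronectin, small proteoglycans and elastic fibres, form the interstitium and vessel walls, and are made mainly by fibroblasts, pericytes and smooth muscle.

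The genes Col4a4 and Col4a3, whose levels return below, lie head to head on chromosome 1 and their annotated start sites are separated by 71 bases. Those 71 bases are shown because both genes were lower with D-serine and share this stretch as the DNA just upstream of each. The second sequence is the 100 bases before the start of Lama5, shown as the gene of the laminin alpha chain with the highest level in this kidney. Both come from the RefSeq promoter table of GRCm38.p6 (the assembly also called mm10), which held 47 of the 68 genes, and both read 5′ to 3′ on the strand of Col4a4 and of Lama5. Capitals mark GC boxes, searched as GGGCGG on both strands.
Col4a4-Col4a3 gap: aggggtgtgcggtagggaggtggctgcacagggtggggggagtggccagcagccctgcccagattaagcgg
Lama5 upstream: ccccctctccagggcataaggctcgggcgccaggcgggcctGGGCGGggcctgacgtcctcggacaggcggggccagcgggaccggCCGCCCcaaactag
The gap (chr1:82586850-82586920, minus strand) was 69% G and C and held no GC box, which 20.7% of 32851 windows of 71 bases before a start site did. It held neither CCAAT, found in 13.3% of those windows, nor TATAAA, found in 4.41%. The Lama5 window (chr2:180225860-180225959, minus strand) was 77% G and C and held 2 GC boxes, where 24.7% of windows of 100 bases held at least 1. It held neither CCAAT (18.9% of such windows) nor TATAAA (5.56%).

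Levels are given as FPKM (fragments scaled by transcript length and by library total), which allows levels of different genes to be compared. Library totals were estimated from the steps between low values and came to roughly 7470000 to 8280000 mapped fragments in vehicle libraries. In D-serine libraries they were roughly 6920000 to 7390000, with D-serine replicate 2 the shallowest. By this estimate every D-serine library was shallower than every vehicle library, and the part of depth in the differences was not tested. Differences between groups were tested with limma on log2(FPKM + 1), a scale that understates the change of low genes, for 11737 genes whose mean reached 1 FPKM. Of the 68 matrix genes, 34 were tested, 30 had lower values and 4 (Col9a1, Col11a1, Col17a1 and Col28a1) were listed at 0 in all 6 libraries. Defining kidney markers were present in every library: Slc34a1 of the proximal tubule was at 2026 to 2590 FPKM, Umod of the thick ascending limb at 526 to 1090 FPKM and Aqp2 of the collecting duct at 110 to 275 FPKM.

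No matrix gene passed the test at an adjusted p of 0.05 over all genes (0 of 34 in limma, against 0.0767% of all tested genes), and 11 had an unadjusted p under 0.05. Those 11 were 8 higher and 3 lower with D-serine, or 32.4% of the tested matrix genes beside 27.7% of all tested genes. The share depended on the setting: it was 38.2% beside 25.0% with correction for length and GC content and 17.6% beside 17.2% without vehicle replicate 1. The gene nearest to a call was Vwa1, at 23.4 FPKM in vehicle against 11.6 FPKM in D-serine kidneys (limma adjusted p = 0.052). The collagen IV chains of the mature glomerular membrane, Col4a3 and Col4a4, were at about 0.755 and 0.741 of their vehicle level, while laminin chains Lama5 and Lamb2, elastin, Col15a1 and Sparc were at 1.45 to 2.22 times it. The 3 D-serine libraries lay wholly above the 3 vehicle libraries for 9 tested matrix genes and wholly below for 3, or 35.3% together. Such a separation was seen in 35.8% of the genes tested, 16.5% upward and 19.4% downward. Of the 34 tested genes, 27 had a log2 difference above 0 and the median was 0.30, beside -0.0078 and 48.9% above 0 over all tested genes. These counts do not cover all matrix genes: 4 of the 34 (Col1a1, Col3a1, Col6a2 and Col7a1) reached the minimum of 1 FPKM through the D-serine libraries, having vehicle means below it. Conversely, 1 gene with a vehicle mean above the minimum was left out through its low D-serine libraries: Col19a1, at 1.11 FPKM in vehicle against 0.420 FPKM in D-serine kidneys. In whole tissue a change in the number of cells of a type and a change in RNA per cell cannot be told apart, which holds for each difference given here.

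**Figure D1:**
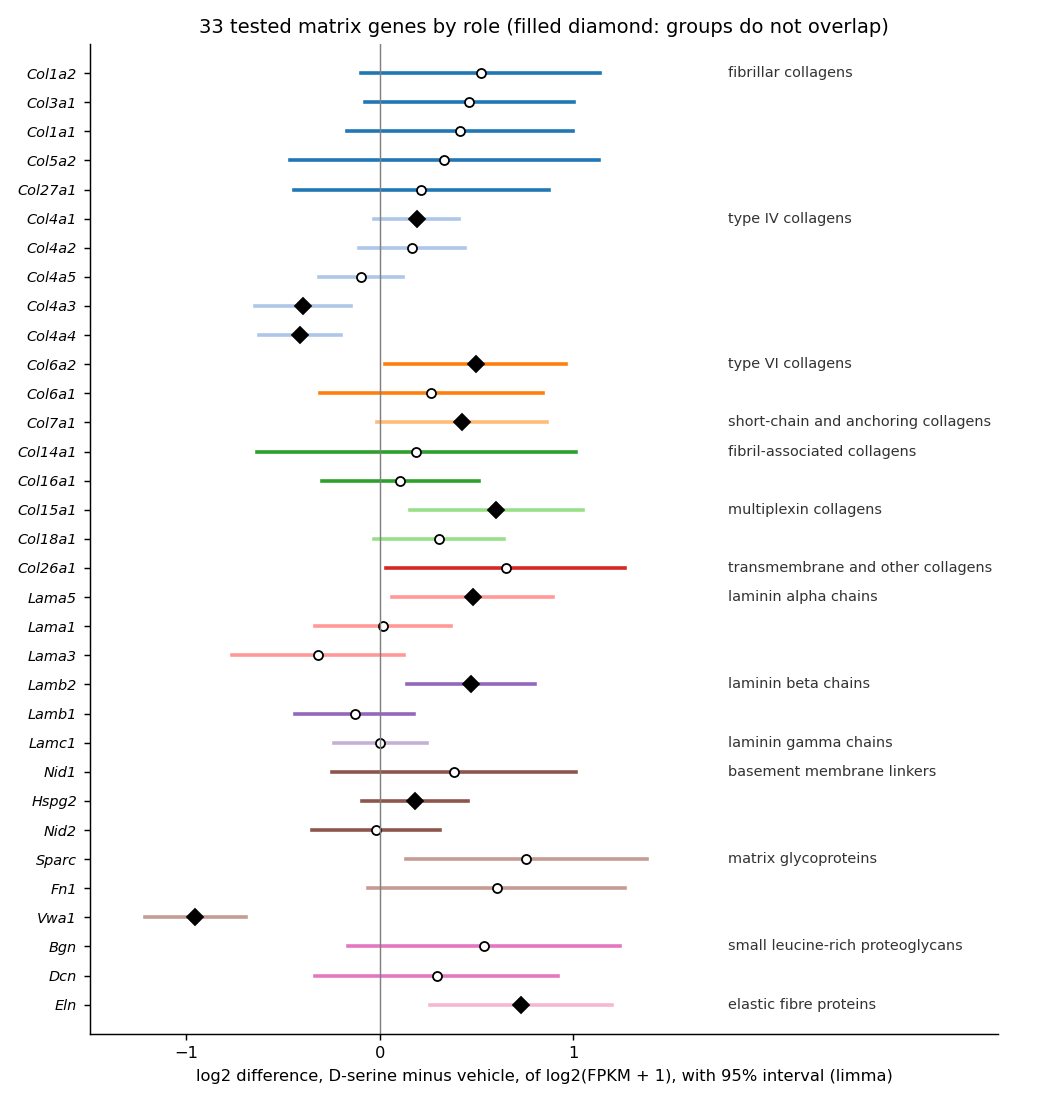
Log2 difference (D-serine minus vehicle, of log2(FPKM + 1)) on the x axis for 33 of the 34 tested matrix genes on the y axis, ordered by role, with the 95% interval from limma as a line. Filled diamonds mark the 11 of them whose 3 D-serine and 3 vehicle libraries do not overlap, among them Vwa1 at -0.95, Col4a3 and Col4a4 near -0.4 and Eln at 0.73.

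Replicates within the D-serine group differed more than the vehicle replicates did. D-serine replicate 2 held the highest value of the 6 libraries for 22 of the 34 tested matrix genes (64.7%), beside 26.4% of all tested genes. The median deviation of the 34 genes from their vehicle mean, on the log2(FPKM + 1) scale, was -0.12, -0.015 and 0.098 in the vehicle libraries and -0.0020, 0.62 and 0.25 in the D-serine libraries. D-serine replicate 1 was thus at the vehicle level by this measure. The median log2 difference of 0.30 was 0.13 without D-serine replicate 2 and 0.45 without D-serine replicate 1. Without replicate 2, 7 of the 34 genes had an unadjusted p under 0.05 (20.6%, beside 21.9% of all tested genes), and without replicate 1, 19 did (55.9%, beside 25.2%).

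**Figure D2:**
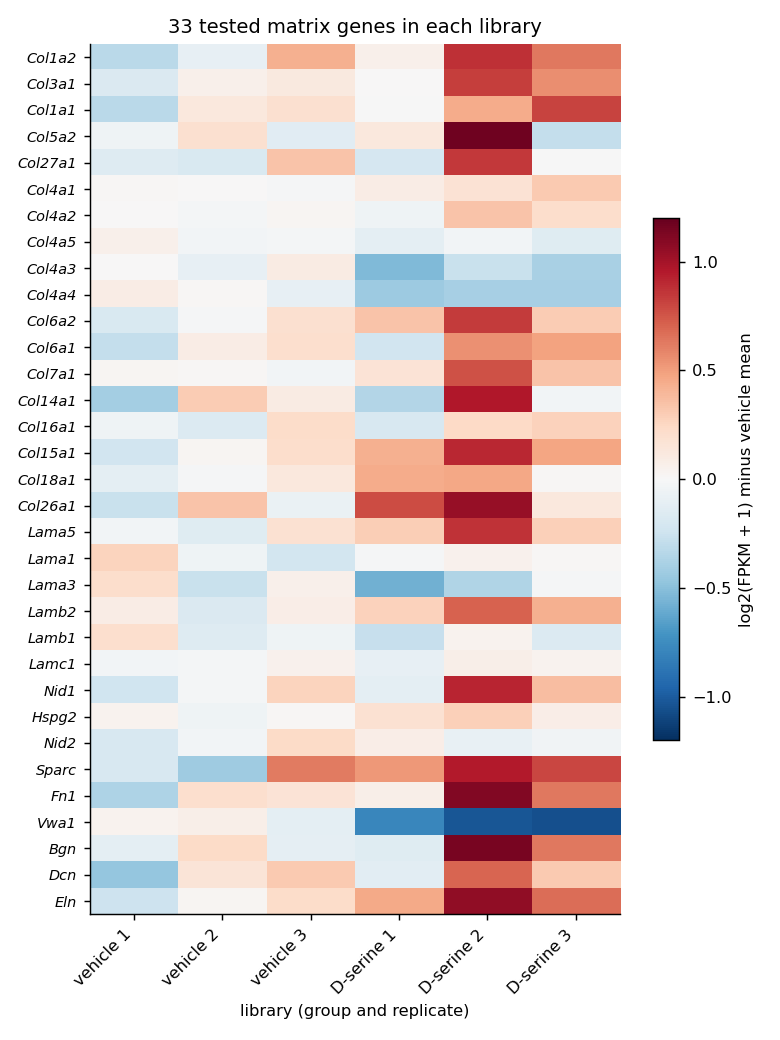
Deviation of each of 33 of the 34 tested matrix genes (rows, in order of role) from its vehicle mean in each of the 6 libraries (columns), on the log2(FPKM + 1) scale from blue (lower) to red (higher). The column of D-serine replicate 2 is the reddest, while Vwa1, Col4a3 and Col4a4 are blue in all 3 D-serine columns.

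Vwa1 encodes a small matrix protein with a von Willebrand factor A domain, also known as WARP, which binds perlecan in basement membranes. It lies on chromosome 4 (155768149 to 155774698, minus strand, mm10). Its libraries stood at 24.2, 24.6 and 21.5 FPKM in vehicle kidneys against 13.2, 11 and 10.8 FPKM in D-serine kidneys. The groups were far apart for their spread: 23.4 ± 1.68 against 11.6 ± 1.34 FPKM (SD, n = 3 each), with a log2 difference of -0.95 ± 0.11 (SE) and a 95% interval from -1.21 to -0.69. The limma adjusted p of 0.052 missed the threshold and passed it in 9 of 18 alternative settings (adjusted p from 0.030 to 0.23), while the difference without 1 library at a time stayed between -1.04 and -0.90. Of its 3623 annotated exon bases, 760 (21.0%) are also exon of Gm26840 and 153 of Atad3aos, both on the opposite strand. The strand setting of the quantification was not given in the sources used here. Atad3aos was at 1.24 to 1.47 FPKM in vehicle kidneys against 0.622 to 1.77 FPKM in D-serine kidneys, with overlapping groups.

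None of the 5 tested type IV collagen genes passed the test. The 95% intervals of Col4a3 and Col4a4 lay below 0. At an unadjusted p under 0.05 in limma these were 2 of 5 (40%), beside 27.7% of all tested genes, 14.6% lower. The 6 genes form 3 pairs that lie head to head: Col4a3 with Col4a4 on chromosome 1, Col4a1 with Col4a2 on chromosome 8 and Col4a5 with Col4a6 on chromosome X. Col4a3 (82586921 to 82722059, plus strand) stood at 43.3, 40.2 and 46.3 FPKM in vehicle kidneys against 29.6, 35.6 and 32.8 FPKM in D-serine kidneys. Col4a4 (82448423 to 82586849, minus strand) stood at 26.0, 24.6 and 22.6 FPKM in vehicle kidneys against 17.7, 18.3 and 18.2 FPKM in D-serine kidneys. For both genes every D-serine library was below every vehicle library. The log2 differences were -0.40 ± 0.11 and -0.41 ± 0.090 (SE, limma adjusted p = 0.085 and 0.071), and -0.46 and -0.42 without D-serine replicate 2. The ratio of Col4a3 to Col4a4 within a library was 1.78 ± 0.230 in vehicle and 1.81 ± 0.139 in D-serine kidneys (SD, n = 3 each), a difference smaller than the spread. In the annotation, 563 of the exon bases of Col4a3 (5.65%) are shared with C430014B12Rik on the opposite strand.

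Col4a1 and Col4a2, which encode the chains present in all basement membranes, had log2 differences above 0 with intervals that spanned 0. Col4a1 (chromosome 8, 11198423 to 11312826) was at 26.7, 26.5 and 26.3 FPKM in vehicle kidneys against 28.1, 30.0 and 33.2 FPKM in D-serine kidneys. Col4a2 (11312805 to 11449287) was at 18.4, 18.0 and 18.6 FPKM in vehicle kidneys against 17.7, 23.5 and 21.3 FPKM in D-serine kidneys. Vehicle libraries of both genes were within 1 FPKM of each other, and the groups did not overlap for Col4a1 but did for Col4a2, whose D-serine replicate 1 was the lowest of the 6. The log2 differences were 0.19 and 0.17 (95% intervals from -0.029 to 0.41 and from -0.11 to 0.44, limma adjusted p = 0.22 and 0.38), and 0.20 and 0.080 without D-serine replicate 2.

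Col4a5, which joins the alpha3 and alpha4 chains in the mature network, was at 6.76, 6.26 and 6.33 FPKM in vehicle kidneys against 5.86, 6.30 and 5.75 FPKM in D-serine kidneys, with overlapping groups (log2 difference -0.097, limma adjusted p = 0.51). Its neighbour Col4a6, a chain of Bowman's capsule, was too low to test, at 0.148, 0.0861 and 0.109 FPKM in vehicle kidneys against 0.184, 0.275 and 0.242 FPKM in D-serine kidneys. Its groups did not overlap, but they rest on an estimated 8.6 fragments per library. With vehicle the order of mean levels was Col4a3 (43.3 FPKM), Col4a1 (26.5), Col4a4 (24.4), Col4a2 (18.3), Col4a5 (6.45) and Col4a6 (0.114), of which Col4a1 and Col4a4 were the closest neighbours, with libraries from 26.3 and up to 26.0 FPKM. With D-serine, Col4a3 (32.7 FPKM) and Col4a1 (30.5 FPKM) overlapped, and so did Col4a2 (20.8 FPKM) and Col4a4 (18.1 FPKM).

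The balance between the pairs can be read within each library, where the scaling between libraries cancels. The sum of Col4a3 and Col4a4 over the sum of Col4a1 and Col4a2 was 1.54, 1.46 and 1.54 in vehicle and 1.03, 1.01 and 0.935 in D-serine kidneys. The 2 groups were separated by a wide gap, with means of 1.51 ± 0.0477 and 0.992 ± 0.0505 (SD, n = 3 each). This ratio was formed after the values had been seen, so it is a description and carries no test. After removal of the dependence on transcript length and GC content in each library, the log2 differences were -0.35 for Col4a3, -0.36 for Col4a4, 0.16 for Col4a1 and 0.093 for Col4a2.

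**Figure D3:**
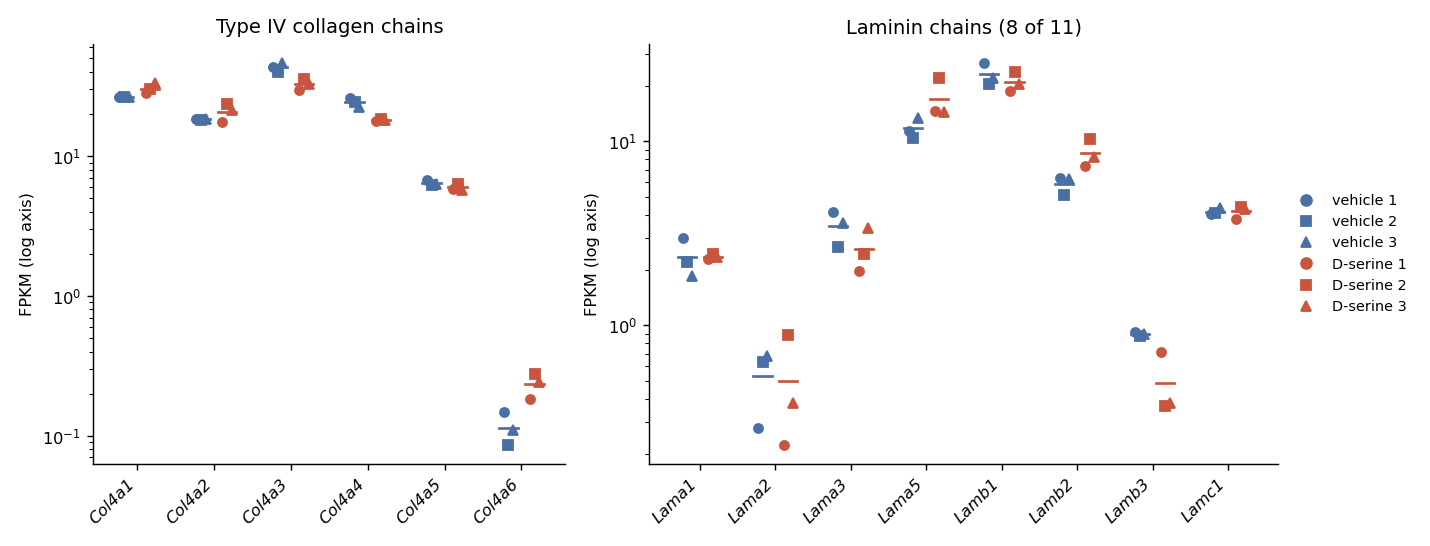
FPKM on a log axis of the 6 type IV collagen genes (left) and 8 of the 11 laminin genes (right), with blue for vehicle, red for D-serine, a symbol per replicate and a bar at the group mean. All 3 D-serine points of Col4a3 and Col4a4 lie below the vehicle points, and those of Lama5 and Lamb2 lie above.

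Laminins are trimers of an alpha, a beta and a gamma chain, and their genes did not differ as 1 group. Of 11 genes 7 were tested, 5 with a difference above 0 and 2 below, with a median log2 difference of 0.016. Lama5, the alpha chain of most adult kidney basement membranes (chromosome 2, 180176373 to 180225859), was at 11.4, 10.5 and 13.4 FPKM in vehicle kidneys against 14.6, 22.1 and 14.5 FPKM in D-serine kidneys. Lamb2, the beta chain of the mature glomerular membrane (chromosome 9, 108479736 to 108490530), was at 6.31, 5.12 and 6.28 FPKM in vehicle kidneys against 7.36, 10.3 and 8.24 FPKM in D-serine kidneys. In both genes every D-serine library was above every vehicle library. The log2 differences were 0.48 ± 0.18 for Lama5 and 0.47 ± 0.14 for Lamb2 (SE, limma adjusted p = 0.14 and 0.10), and they were 0.29 and 0.35 without D-serine replicate 2.

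The intervals of the chains Lamc1 and Lamb1 spanned 0. Lamc1, the gamma chain that partners Lama5 and Lamb2 in the glomerular membrane, was at 4.04, 4.09 and 4.34 FPKM in vehicle kidneys against 3.81, 4.42 and 4.29 FPKM in D-serine kidneys. Its log2 difference was 0.0036, with a 95% interval from -0.24 to 0.24. Lamb1, the beta chain that Lamb2 replaces as the glomerulus matures, was the laminin gene with the highest level, at 26.7, 20.6 and 22.2 FPKM in vehicle kidneys against 18.9, 23.8 and 20.5 FPKM in D-serine kidneys. The Lamb1 groups overlapped, with a log2 difference of -0.13 and a 95% interval from -0.44 to 0.18, and it was at -0.22 without D-serine replicate 2 and at -0.028 without vehicle replicate 1. The ratio of Lamb2 to Lamb1 within a library was 0.237, 0.249 and 0.283 in vehicle and 0.390, 0.432 and 0.402 in D-serine kidneys. That ratio, also formed after the values had been seen, did not overlap between groups, and neither did Lama5 over Lamc1 (2.57 to 3.10 in vehicle and 3.37 to 5.0 in D-serine kidneys).

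**Figure D4:**
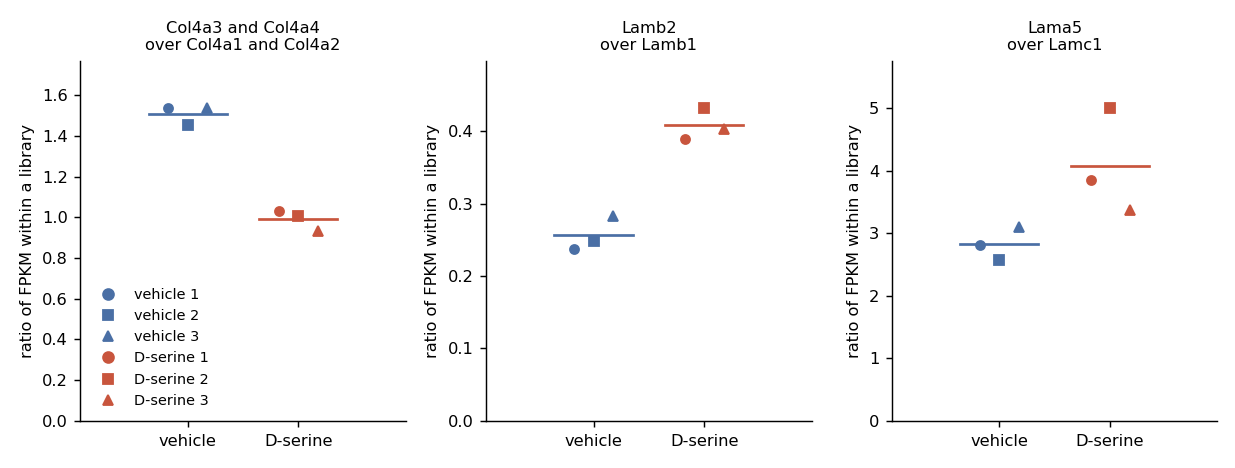
Ratios of FPKM within each library (y axis, starting at 0) for vehicle in blue and D-serine in red, with a symbol per replicate and a bar at the group mean. The ratio of Col4a3 and Col4a4 to Col4a1 and Col4a2 is 1.46 to 1.54 in vehicle and 0.935 to 1.03 in D-serine kidneys, while Lamb2 over Lamb1 is 0.237 to 0.283 and 0.390 to 0.432.

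Lama3, an alpha chain of epithelial laminin, was at 2.67 to 4.13 FPKM in vehicle kidneys against 1.97 to 3.37 FPKM in D-serine kidneys (log2 difference -0.32, limma adjusted p = 0.30, and -0.19 without D-serine replicate 1). Its beta partner Lamb3 was under the minimum, at 0.917, 0.874 and 0.894 FPKM in vehicle kidneys against 0.716, 0.366 and 0.378 FPKM in D-serine kidneys. All 3 D-serine libraries of Lamb3 were thus below the vehicle libraries. Lama1, an alpha chain of tubular basement membranes, was at 2.36 ± 0.582 and 2.37 ± 0.0778 FPKM (SD, n = 3 each). Lama2, Lama4 and Lamc3 had overlapping groups at means of 0.514, 0.130 and 0.970 FPKM.

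None of the 3 linkers of the basement membrane passed the test, and 2 had log2 differences above 0. Hspg2, which encodes perlecan, the heparan sulphate proteoglycan of basement membranes, was at 2.30, 2.10 and 2.24 FPKM in vehicle kidneys against 2.64, 2.92 and 2.41 FPKM in D-serine kidneys. Its groups did not overlap, but the log2 difference was 0.18 with a 95% interval from -0.091 to 0.46. Nid1, a nidogen that bridges laminin and type IV collagen, was at 1.31, 1.67 and 2.27 FPKM in vehicle kidneys against 1.5, 4.12 and 2.51 FPKM in D-serine kidneys. The second nidogen gene, Nid2, was at 2.47, 2.87 and 3.66 FPKM and at 3.2, 2.73 and 2.85 FPKM. Both nidogens had overlapping groups (limma adjusted p = 0.38 and 0.95), and the log2 difference of Nid1, 0.39, was 0.12 without D-serine replicate 2.

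Col18a1 and Col15a1 encode the multiplexins, collagens of basement membrane zones whose ends release endostatin and restin. Col18a1 was the third most abundant matrix gene, at 29.0, 31.3 and 34.6 FPKM in vehicle kidneys against 43.2, 43.9 and 31.8 FPKM in D-serine kidneys. Its replicate 3 with D-serine lay inside the vehicle range, and the log2 difference was 0.31 (limma adjusted p = 0.21). Col15a1 was far lower, at 0.746, 1.09 and 1.38 FPKM in vehicle kidneys against 1.76, 2.85 and 1.85 FPKM in D-serine kidneys. Its groups did not overlap (log2 difference 0.60 ± 0.19 SE, limma adjusted p = 0.11, and 0.45 without D-serine replicate 2). Col7a1, which forms anchoring fibrils beneath epithelia, was at 0.731 to 0.801 FPKM in vehicle kidneys against 0.989 to 2.01 FPKM in D-serine kidneys, also without overlap (log2 difference 0.43, limma adjusted p = 0.19, and 0.26 without D-serine replicate 2). Col7a1 reached the minimum of 1 FPKM only through the D-serine libraries, with a vehicle mean of 0.774 FPKM.

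Fibrillar collagens were mostly scarce, and of 11 genes 5 were tested, 0 of them with an unadjusted p under 0.05 (beside 27.7% of all tested genes). Of those 5, Col1a1 and Col3a1 reached the minimum only through the D-serine libraries, so no summary over the 5 is given. Col1a1, the alpha1 chain of type I collagen, was at 0.401, 0.914 and 0.993 FPKM in vehicle kidneys against 0.739, 1.38 and 2.06 FPKM in D-serine kidneys. Its partner Col1a2 was at 1.48, 1.89 and 3.16 FPKM in vehicle kidneys against 2.23, 4.69 and 3.79 FPKM in D-serine kidneys. Col3a1, type III collagen, was at 0.633, 0.911 and 0.986 FPKM and at 0.841, 2.27 and 1.70 FPKM. In all 3 genes D-serine replicate 1 lay within the vehicle range, so the groups overlapped, and the log2 differences of 0.41, 0.52 and 0.46 did not pass (limma adjusted p from 0.23 to 0.31) and were 0.40, 0.34 and 0.28 without D-serine replicate 2. Col1a1 was at 0.22 without D-serine replicate 3 and at 0.63 without D-serine replicate 1. The estimated number of fragments behind them was 47.4, 114 and 50.2 in an average library. Col5a2, a type V chain that sets fibril width, was at 4.21 to 5.51 FPKM in vehicle kidneys against 5.22, 11.9 and 3.67 FPKM in D-serine kidneys, and its log2 difference of 0.33 was -0.084 without replicate 2.

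The matrix gene with the highest level was Col27a1, a fibrillar collagen best known from cartilage (chromosome 4, 63214004 to 63334991). It stood at 43.4, 42.4 and 61.7 FPKM in vehicle kidneys against 42.0, 88.1 and 48.4 FPKM in D-serine kidneys, an estimated 3080 fragments per library. The groups overlapped, and the log2 difference of 0.22 was -0.10 without D-serine replicate 2. Col2a1, Col5a1, Col5a3, Col11a2 and Col24a1 were at means of 0.0083 to 0.487 FPKM and were not tested.

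Type VI collagen forms beaded filaments around cells. Col6a1 was at 0.927, 1.5 and 1.71 FPKM in vehicle kidneys against 1.01, 2.45 and 2.29 FPKM in D-serine kidneys, and Col6a2, its neighbour on chromosome 10, at 0.541, 0.725 and 1.0 FPKM and at 1.21, 2.12 and 1.16 FPKM. Col6a3 was not tested, at 0.408, 0.592 and 0.586 FPKM and at 0.511, 0.934 and 0.831 FPKM. Of the 3, Col6a2 had groups without overlap (log2 difference 0.50 ± 0.20 SE, limma adjusted p = 0.16, and 0.32 without D-serine replicate 2). Col6a2 reached the minimum of 1 FPKM only through the D-serine libraries, with a vehicle mean of 0.755 FPKM. Among the fibril-associated collagens Col14a1 was at 1.09 to 2.42 FPKM and 1.16 to 4.38 FPKM and Col16a1 at 2.13 to 3.08 FPKM and 2.06 to 3.24 FPKM, with overlapping groups. Col26a1, a collagen of testis and ovary, was at 1.53 to 2.84 FPKM in vehicle kidneys against 2.31 to 5.27 FPKM in D-serine kidneys (log2 difference 0.65, limma adjusted p = 0.16).

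Elastin had the largest log2 difference above 0 among the tested matrix genes whose groups did not overlap, and it did not pass. Eln, which encodes the elastic core of vessel walls (chromosome 5, 134702593 to 134747323), was at 0.859, 1.24 and 1.58 FPKM in vehicle kidneys against 2.02, 3.61 and 2.52 FPKM in D-serine kidneys. The log2 difference was 0.73 ± 0.20 (SE, 95% interval from 0.26 to 1.2, limma adjusted p = 0.091), and 0.56 without D-serine replicate 2. Fbn1, fibrillin-1 of the microfibrils on which elastin assembles, was at 0.208, 0.481 and 0.387 FPKM and at 0.257, 0.627 and 0.396 FPKM, and was too low to test. In the annotation 20.1% of the exon bases of Fbn1 are also exon of Gm9913 on the opposite strand.

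Sparc, a collagen-binding matricellular protein, was at 10.7, 8.90 and 19.5 FPKM in vehicle kidneys against 18.1, 24.9 and 22.3 FPKM in D-serine kidneys. Vehicle replicate 3 lay among the D-serine values, and the log2 difference of 0.76 ± 0.27 (SE, limma adjusted p = 0.13) was 1.07 without it, 0.54 without vehicle replicate 2 and 0.66 without D-serine replicate 2. Its unadjusted p of 0.023 was above 0.05 without vehicle replicate 1 or 2 or D-serine replicate 2 or 3. Fn1, fibronectin, was at 0.853, 1.75 and 1.68 FPKM in vehicle kidneys against 1.51, 4.15 and 2.71 FPKM in D-serine kidneys (log2 difference 0.60, limma adjusted p = 0.21, and 0.35 without D-serine replicate 2). Tnc, tenascin-C, was at 0.0154, 0.0483 and 0.238 FPKM and at 0.155, 0.294 and 0.226 FPKM. Postn, periostin, which is made in injured and fibrotic kidney, was at 0.0725, 0 and 0.12 FPKM and at 0.122, 0 and 0.12 FPKM. Both were within a few fragments of the floor, at an estimated 8.4 and 2.8 fragments per library. They were too low to test, so no difference is read from them.

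Small leucine-rich proteoglycans bind collagen fibrils and growth factors. Bgn, biglycan, was at 12.4, 16.0 and 12.5 FPKM in vehicle kidneys against 12.1, 31.0 and 21.6 FPKM in D-serine kidneys. Dcn, decorin, was at 1.70, 3.15 and 3.64 FPKM and at 2.42, 5.06 and 3.63 FPKM. Both overlapped: D-serine replicate 1 of Bgn was below the vehicle libraries, and D-serine replicates 1 and 3 of Dcn were inside the vehicle range (log2 differences 0.54 and 0.29, limma adjusted p = 0.27 and 0.49), and 0.24 and 0.093 without D-serine replicate 2. Without vehicle replicate 1 Dcn was at 0.062. Lum, lumican, was listed at 0.113, 0 and 0 FPKM in vehicle kidneys against 0, 0 and 0.129 FPKM in D-serine kidneys.

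**Figure D5:**
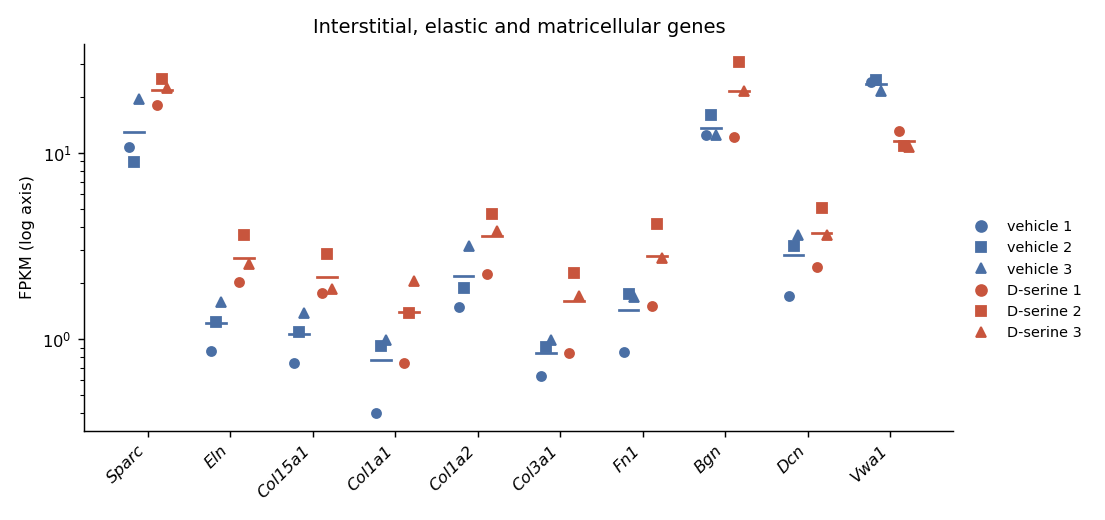
FPKM on a log axis of 10 interstitial, elastic and matricellular genes, with blue for vehicle, red for D-serine, a symbol per replicate and a bar at the group mean. D-serine replicate 1 (red circle) sits at or near the vehicle points for Col1a1, Col3a1, Fn1, Bgn and Dcn, and Vwa1 is the gene whose D-serine points lie below all vehicle points.

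Markers of the cells that make interstitial matrix also differed between libraries. For fibroblasts, pericytes and smooth muscle, 7 of 9 tested markers had log2 differences above 0, beside 48.9% of all tested genes, and 2 were below 0. An unadjusted p under 0.05 was found for 4, all higher (44.4%, beside 27.7%). Groups did not overlap for 5 higher markers and 1 lower marker (66.7%, beside 35.8% of all tested genes). The 16 markers summed to 51.7 to 97.8 FPKM in vehicle kidneys against 153 to 168 FPKM in D-serine kidneys. Renin (Ren1) held much of that sum. Without it the sums were 36.7, 30.2 and 46.5 FPKM in vehicle kidneys against 51.0, 86.6 and 68.5 FPKM in D-serine kidneys, again highest in D-serine replicate 2. Acta2 and Tagln, smooth muscle genes, were among the higher markers. In vehicle kidneys they were at 7.97 to 9.68 and 7.41 to 10.5 FPKM. With D-serine they were at 12.9 to 23.9 and 14.6 to 22.5 FPKM. The fibroblast receptor gene Pdgfra was too low to test, at 0.30 to 0.612 FPKM and 0.486 to 1.2 FPKM, with overlapping groups. The 2 lower markers are counted above only. The part of these cells in the differences of Eln, Sparc and the interstitial collagens was not tested.

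Of 12 tested endothelial markers 10 had log2 differences above 0 and 3 (25%) an unadjusted p under 0.05, a share below that of all tested genes (27.7%). They summed to 36.8 to 66.0 FPKM in vehicle kidneys against 55.9 to 79.3 FPKM in D-serine kidneys. Podocytes make the alpha3 and alpha4 chains of type IV collagen in the glomerulus. Of their 9 tested markers 7 were higher, and all 10 summed to 44.4, 26.9 and 80.5 FPKM in vehicle kidneys against 57.3, 56.5 and 49.9 FPKM in D-serine kidneys. The lowest and the highest of the 6 podocyte sums were both in vehicle libraries, so the groups overlapped. The 12 proximal tubule markers summed to 112600 to 136900 FPKM in vehicle kidneys against 95940 to 129300 FPKM in D-serine kidneys, most of it Kap, and those sums overlapped. Of the 11 markers other than Kap 10 were lower, and they summed to 5365 to 5619 FPKM in vehicle kidneys against 3949 to 4629 FPKM in D-serine kidneys, and the 8 collecting duct markers, all higher, to 330 to 425 FPKM and 451 to 605 FPKM. Of the 6 thick ascending limb markers 4 were lower. Their sums overlapped, at 1564 to 1798 FPKM in vehicle kidneys against 1026 to 1581 FPKM in D-serine kidneys. The 4 distal convoluted tubule markers, all higher, summed to 563 to 734 FPKM and 746 to 874 FPKM. The part of these segments in the differences of Vwa1, Col4a3 and Col4a4 was not tested.

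Markers of tissue attached to the kidney were near the floor. Of the adipocyte markers, Plin1, Cfd and Lep were listed at 0 in all 6 libraries and Adipoq in 5, while Fabp4, which endothelium also expresses, was at 11.3 to 16.4 FPKM in vehicle kidneys against 15.9 to 23.6 FPKM in D-serine kidneys. The 6 urothelial markers summed to at most 1.39 FPKM in vehicle and 2.13 FPKM in D-serine kidneys. Of 5 skeletal muscle markers 3 were listed at 0 in all 6 libraries.

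Another 4 lists, none of them part of the matrix set, place these genes in their pathway, and 0 of their tested members passed at an adjusted p of 0.05 in limma. Collagen chains are hydroxylated, folded, exported and crosslinked by their own machinery. Of 23 tested genes of that machinery 14 were above and 9 below 0, with 2 higher and 6 lower at an unadjusted p under 0.05 (34.8%, beside 27.7% of all tested genes) and a median log2 difference of 0.056. The 3 with the smallest p were all lower. Ctage5 and Mia3, which package procollagen at exit sites of the endoplasmic reticulum, were at 99.98, 102 and 94.8 FPKM and at 12.7, 13.1 and 11.8 FPKM with vehicle. With D-serine they were at 66.1, 58.0 and 72.9 FPKM and at 9.66, 9.17 and 9.74 FPKM (limma adjusted p = 0.059 and 0.079). P4ha1, a prolyl 4-hydroxylase subunit, was at 16.8, 19.1 and 18.5 FPKM and at 12.4, 12.3 and 14.3 FPKM (limma adjusted p = 0.072).

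Among 17 tested matrix receptors 8 were above and 9 below 0 (2 higher and 5 lower at an unadjusted p under 0.05, or 41.2% beside 27.7% of all tested genes, median log2 difference -0.0045). Itgb8, an integrin that activates TGF-beta, was at 7.26, 3.27 and 3.66 FPKM in vehicle kidneys against 1.77, 0.877 and 2.24 FPKM in D-serine kidneys. Itga5, of the fibronectin receptor, was at 0.687, 0.213 and 0.762 FPKM and at 2.14, 1.28 and 1.41 FPKM, and Dag1, dystroglycan, which binds laminin, at 16.6 to 18.8 FPKM and 11.4 to 14.4 FPKM. These 3, picked by smallest p, had groups without overlap (limma adjusted p from 0.090 to 0.11). So did 41.2% of the 17 receptors, beside 35.8% of all tested genes. Itga5 was under 1 FPKM in every vehicle library and reached that minimum through the D-serine libraries, and the counts above include it.

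Of 21 other tested matrix glycoproteins and proteoglycans 18 were above 0 (7 higher and 1 lower at an unadjusted p under 0.05, or 38.1% beside 27.7%), with a median log2 difference of 0.33. Spp1, osteopontin, was at 314, 369 and 368 FPKM in vehicle kidneys against 529, 610 and 448 FPKM in D-serine kidneys. Ntn4, netrin-4, which binds laminin gamma1 in basement membranes, was at 7.50, 5.99 and 6.13 FPKM and at 3.66, 3.79 and 4.58 FPKM, and Thbs3, a thrombospondin, at 0.641 to 0.858 FPKM and 1.24 to 2.06 FPKM. Limma adjusted p ran from 0.069 to 0.10 for the 3. Thbs3 was under 1 FPKM in every vehicle library and reached that minimum through the D-serine libraries, and the counts above include it. Of 14 tested genes of signals known to drive fibrosis, 4 were above 0 and 10 below (0 higher and 4 lower at an unadjusted p under 0.05, or 28.6%, close to the 27.7% of all tested genes, median log2 difference -0.16). Tgfbr2, a TGF-beta receptor, was at 15.5, 16.3 and 15.1 FPKM and at 12.4, 9.81 and 11.9 FPKM, its effector Smad2 at 3.45 to 4.56 FPKM and 2.68 to 2.88 FPKM, and the growth factor Pdgfc at 4.23 to 5.32 FPKM and 2.26 to 4.18 FPKM (limma adjusted p from 0.080 to 0.12).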

How the data were processed

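FPKM values, 1 table for each sample with the same 24346 symbols, are what the authors deposited. Per the labels' protocols, RNA was extracted with TRIzol and libraries were made with a TruSeq stranded mRNA kit. TopHat2 2.0.13, Bowtie2 2.2.3, SAMtools 0.1.19, Cufflinks 2.2.1 and mm10 are named per the submitters' processing notes. Annotation, strand setting and read length were not given in the sources used here. Because Cufflinks can list a gene at 0 when an estimate fails, a 0 is reported only as listed.

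Limma 3.58.1 in R 4.3.3 (lmFit, eBayes with a mean-variance trend) compared 3 D-serine with 3 vehicle libraries on log2(FPKM + 1) over the 11737 genes whose mean reached 1 FPKM. The test was two-sided, p-values were adjusted by Benjamini-Hochberg over all tested genes, and the threshold was 0.05. An exact permutation test of 3 against 3 cannot go below 0.1, and no count model was fitted to these normalized values. The script was tested on simulated data. Depth was estimated from the steps between low values in 208 genes with 1 annotated transcript. Fragment numbers per gene are rough estimates from it and the longest transcript, and no interval was computed from them. Positions, lengths and GC content came from GENCODE M21 (mm10), matched by symbol for all 68 genes and for 11283 tested genes (96.1%).

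The set of genes, defined by symbol, and the other lists were chosen with earlier results of these data known. Values per library are given for genes with an unadjusted p under 0.05 whose groups do not overlap, for a set of main collagens, laminins and the other named proteins in any case, and for the 3 genes with the smallest p of each companion list. Other genes, such as Col27a1, were named after their values were seen. Of the genes this rule names, 1 is counted but not reported here. Alternatives were a pseudocount of 0.1 or 0.01, no minimum or 5 FPKM, median-of-ratios or quantile scaling, limma with no trend, weights per library, a block for the replicate number, removal of a loess trend on length and GC content (span 0.5), the last 2 together, exclusion of 96 small RNA genes, and each library left out in turn.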

Additional observations from a re-analysis of the deposited data

How the results depend on the processing

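The count of 0 matrix genes called became 1, Vwa1 each time, in 9 of 18 settings: a pseudocount of 0.1 or 0.01, a minimum of 5 FPKM, median-of-ratios scaling, weighted libraries, correction for length and GC content, no small RNA genes, and without D-serine replicate 1 or 3. Over the 6 fits without 1 library it was 0 to 1. The count of all genes called, 9, moved to 171 and 221 with a pseudocount of 0.1 and 0.01, 132 with a minimum of 5 FPKM, 15 with median-of-ratios scaling, 269 with weighted libraries, 42 with correction for length and GC content and 332 without small RNA genes. It ran from 2 to 437 without 1 library (437 without D-serine replicate 3). The replicate block gave 2 genes, also when combined with that correction, and called 0 matrix genes. The share of the 34 matrix genes with an unadjusted p under 0.05, 32.4% beside 27.7% of all tested genes, was 38.2% beside 22.7% with the block, 52.9% beside 20.7% with the block and the correction, and 17.6% (beside 17.2%) to 55.9% (beside 25.2%) without 1 library. Whether replicate numbers pair the samples was not settled. Same-numbered libraries had correlations of -0.070, 0.0031 and 0.067 in their deviations from the group means, and only those of number 3 correlated best with their own number. The 12 matrix genes whose groups do not overlap were 35.3% of those tested, beside 35.8% of all tested genes. They became 7 with a minimum of 5 FPKM, where 15 were left to test, and 17 of 64 with no minimum. Without 1 library they were 13 to 22 (22 without D-serine replicate 1). The share over all genes was not computed for these settings, and groups separate more easily with 1 library fewer. No change is therefore read from these counts. The median log2 difference of matrix genes, 0.30, ran from 0.13 to 0.45 without 1 library and was 0.088 with no minimum, which brought in 30 genes of low level. Its shifts under all 18 settings were less than 0.24, the SD between replicates of the members' median. That SD measures the spread between libraries, not the error of a shift between settings or gene sets. No stability is therefore read from it.

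Of 593 single-gene values under the alternatives, 565 kept their direction and side of the threshold, 9 passed it (Vwa1) and 19 in 6 genes changed sign, and the cause was not tested. With quantile normalization Lamc1 was at -0.020 and Lama1 at -0.070. With weighted libraries Lamc1 was at -0.021, Lama1 at -0.011, Nid2 at 0.022 and Col14a1 at -0.015. Without 1 library Lamc1 ran from -0.031 to 0.056, Lama1 from -0.092 to 0.15, Nid2 from -0.12 to 0.098, Col14a1 from -0.20 to 0.46, Col27a1 from -0.10 to 0.43 and Col5a2 from -0.084 to 0.65. The lower ends of Lamc1, Col14a1, Col27a1 and Col5a2 were without D-serine replicate 2. Low depth limits the 34 genes under 1 FPKM, which the main setting did not test. With no minimum the 30 of them with values were tested, and 0 matrix genes were called.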

Other observations

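Among the 30 matrix genes with values that were too low to test, 5 had groups without overlap, 3 higher and 2 lower with D-serine, beside 13% of the 5701 genes of all kinds with values that were too low to test. They are given as values only. Col11a2, a minor fibrillar chain of cartilage, was at 0.255, 0.288 and 0.283 FPKM in vehicle kidneys against 0.703, 0.704 and 0.689 FPKM in D-serine kidneys, the tightest groups of the 5, on an estimated 21.8 fragments in an average library. Col19a1, a fibril-associated collagen, was at 0.707, 1.72 and 0.897 FPKM and at 0.367, 0.625 and 0.267 FPKM. Col20a1, of the same class, was at 0.745, 0.808 and 0.648 FPKM and at 0.894, 1.08 and 0.965 FPKM. Lamb3 and Col4a6 were the others.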
